A study of Mus musculus with 24 samples.

Results

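The 7 genes described here, Brd2, Brd3, Brd9, Mllt1, Mllt3, Yeats2 and Yeats4, encode proteins that read acetylated lysines. They were listed by name, by a rule that uses no measured value, although earlier results of these data were known when the list was drawn up. They are 7 of the 21755 protein-coding genes of GENCODE vM21 on chromosomes 1 to 19 and X. All 7 carried a promoter peak of H3K9ac in each of the 12 libraries, as did 10777 genes (49.5%), while 9811 genes (45.1%) had no promoter peak in any library. A promoter peak was a peak that overlapped the window of 1 kb on either side of any annotated start site of the gene.

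H3K9ac, the acetylation of lysine 9 of histone H3, was mapped by ChIPmentation, a form of ChIP-seq in which the Tn5 transposase adds the sequencing adapters, in 3D spheroids of the triple-negative mouse mammary carcinoma line 4T1. Spheroids were collected at day 5 in 4 groups of 3 libraries. The scramble group carried a non-targeting guide against EGFP and received 75 µM palmitate, a saturated fatty acid. The CPT1a knockout and the KAT2a knockout groups received the same palmitate. The third knockout group was the CPT1a knockout given 5 mM acetate, for which the sample labels give no palmitate dose. A figure legend of the paper states that palmitate was present in the H3K9ac comparison with and without acetate. All groups shared doxycycline-inducible Cas9 and puromycin-selected guide vectors, and the sources used here state neither whether the edited lines were clones nor which guide a library carried, so the share of edited cells in a spheroid is not known. CPT1a carries long-chain fatty acids into mitochondria for oxidation, and KAT2a (GCN5) is an acetyltransferase that can act on H3K9. Nothing in the labels says whether the 3 libraries of a group came from separate cultures, so the p-values measure the spread between these libraries. The 12 input libraries were not analysed here.

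Acetylated lysines on histone tails are bound by reader domains, of which the bromodomain and the YEATS domain are the best known. Brd2 and Brd3 are members of the BET family, whose paired bromodomains hold transcription machinery at acetylated chromatin. Mllt1 (ENL), Mllt3 (AF9), Yeats2 and Yeats4 (GAS41) carry YEATS domains, which bind acetyl and other acyl marks on histone H3, H3K9ac among them. The mark measured here is therefore one that several of these proteins bind, and the question was how the promoters of their own genes carried it when the supply of fatty-acid carbon or the acetyltransferase was changed.

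The lists held between 16212 and 34370 peaks, and the 3 scramble lists were longer (29176 to 34370 peaks) than any of the other 9 (16212 to 24639). The median peak was 585 to 686 bp wide in scramble and 816 to 1147 bp elsewhere, whereas the summed width of the promoter peaks of the median gene was 2743 to 3411 bp in scramble and 1658 to 2566 bp elsewhere. No read counts come with the lists, so the depth is unknown and no counting interval can be given. Of 10 epithelial marker genes, 9 had a promoter peak in every library, among them Epcam, Cdh1, Krt8 and Krt18. None of 10 leukocyte and 7 endothelial markers had a promoter peak in any library. Of 9 fibroblast markers only Pdgfra had one in all 12 libraries, and 7 had none. Peaks of a bulk sample cannot separate a mark carried by fewer cells from a weaker mark in each cell.

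The promoter sequences of 3 of the genes are shown first because the H3K9ac peaks lay over very different DNA. Each is the 250 bases before a GENCODE start site, read 5′ to 3′ on the strand of the gene from GRCm38, the assembly of the mm10 coordinates in the files. Capitals mark 3 kinds of motif on either strand. The GC box is spelled GGGCGG, and neighbouring ones may overlap. The second motif is the box named by its own letters, CCAAT. The core bound by ETS factors is spelled CCGGAAG. Yeats2 is given because its peak summits were displaced in scramble, Yeats4 because it was the poorest in CpG of the principal promoters, and Mllt3 at a pair of promoters, of which one was marked in every library and the other in none.
Yeats2 principal, chr16:20140813-20141062: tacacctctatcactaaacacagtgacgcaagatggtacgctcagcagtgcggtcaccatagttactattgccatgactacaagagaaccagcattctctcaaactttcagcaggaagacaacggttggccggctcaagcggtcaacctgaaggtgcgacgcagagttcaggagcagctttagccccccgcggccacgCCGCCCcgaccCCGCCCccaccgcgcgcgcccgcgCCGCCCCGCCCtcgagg
Yeats4 principal, chr10:117224508-117224757: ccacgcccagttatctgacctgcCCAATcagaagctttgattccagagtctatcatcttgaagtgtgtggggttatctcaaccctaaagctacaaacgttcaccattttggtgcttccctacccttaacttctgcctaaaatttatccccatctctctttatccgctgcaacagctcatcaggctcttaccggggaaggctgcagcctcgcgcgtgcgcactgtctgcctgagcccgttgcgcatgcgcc
Mllt3 principal, chr4:88033365-88033614: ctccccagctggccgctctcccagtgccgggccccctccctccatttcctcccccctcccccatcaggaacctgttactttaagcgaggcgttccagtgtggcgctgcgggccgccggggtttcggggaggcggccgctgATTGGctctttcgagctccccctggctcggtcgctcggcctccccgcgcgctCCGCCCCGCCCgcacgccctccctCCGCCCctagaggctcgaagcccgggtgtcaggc
Mllt3 internal, chr4:87806324-87806573: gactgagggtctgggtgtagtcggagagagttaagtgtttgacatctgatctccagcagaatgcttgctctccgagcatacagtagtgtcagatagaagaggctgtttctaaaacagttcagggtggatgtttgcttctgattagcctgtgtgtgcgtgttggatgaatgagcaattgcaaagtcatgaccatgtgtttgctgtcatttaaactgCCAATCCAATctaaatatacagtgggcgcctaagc
The window before the principal start site of Yeats2 held 23 CpG dinucleotides and 4 GC boxes, all within 52 bases of the start site. The Yeats4 window was 52.4% G and C with 11 CpG, no GC box and 1 CCAAT box. The principal Mllt3 window held 25 CpG, 3 GC boxes and 1 CCAAT box, and its internal counterpart held 4 CpG, no GC box and 2 CCAAT boxes.

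Motifs were counted in the principal promoters of 6 of the genes (Brd2, Brd9, Mllt1, Mllt3, Yeats2 and Yeats4). GC boxes were found in 4 (Brd9, Mllt1, Mllt3 and Yeats2), against 60.6% of the 10777 genes marked throughout and 41.9% of all 21755 genes. CCAAT boxes were found in Mllt1, Mllt3 and Yeats4, against 36.4% and 35.6%. An ETS core was found in Brd2, Brd9 and Mllt1, against 14.8% and 8.63%. No TATA box (TATAAA, both strands) was found in any of the 6, and 5.86% of the marked genes and 11.4% of all genes had one. These matches describe letters in a 250-base window and no binding was measured. In the 1 kb centred on the start site, Brd3 held 131 CpG, Mllt1 113, Yeats2 96, Brd9 86, Brd2 83, Mllt3 74 and Yeats4 68, and the median of the 10777 genes was 66.0.

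The genes have more annotated start sites than marked promoters. When start sites closer than 500 bp were joined, the 7 genes had 34 start-site clusters, of which 12 had a peak within 1 kb in all 12 libraries, 19 had none in any library and 3 had one in some libraries. The 7 principal sites were all among the 12, and the other 5 belonged to Brd2. Clusters without a peak held 5 to 27 CpG in the surrounding 1 kb, against 68 to 131 at the principal sites.

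Of the 19 unmarked clusters, 4 start a protein-coding transcript. They were the far upstream start of Brd3 (chr2:27507662), an intragenic start of Brd3 (27464116 to 27464582), the start of 3 coding Mllt3 transcripts (chr4:87806294-87806323) and an intragenic start of Yeats2 (chr16:20152911). At Mllt3 the contrast was between 74 CpG around the principal site at 88033364, marked in 12 of 12 libraries, and 6 CpG around the internal site, marked in 0 of 12. Within Brd2, sites with 8 and 10 CpG were marked in every library, and these lay inside, or within 1 kb of, a peak region several kilobases long. A site without a peak was one where no peak passed the threshold of the authors, whose smallest −log10 q in any list was 2.0.

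**Figure D1:**
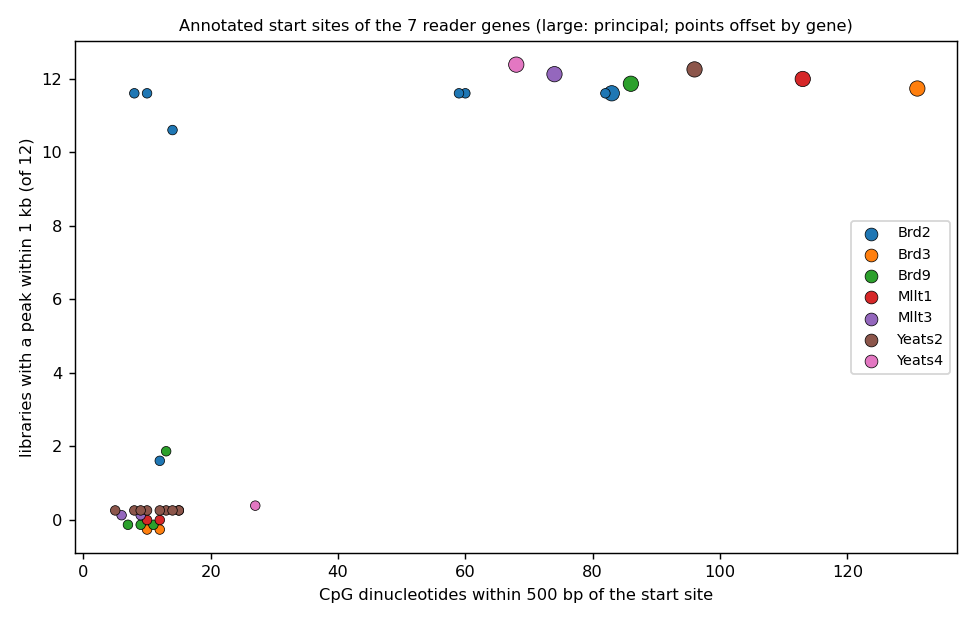
CpG dinucleotides within 500 bp of each annotated start-site cluster (x axis) against the number of libraries with a peak within 1 kb (y axis, of 12), one colour per gene, large points for the principal site, points offset slightly by gene. The 7 principal sites sit at 68 to 131 CpG with a peak in 12 libraries, and the 19 clusters without a peak sit at 5 to 27 CpG.

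Because fold enrichment over background is set by each library's own depth and background, it was compared as a rank. The strongest promoter peak of each of the 10777 genes was ranked by fold enrichment within its library, and the rank is given as a percentile (100 is the highest). The order of the 7 genes by mean percentile over the 12 libraries (± SD, n = 12) was Brd2 (94.3 ± 8.32), Mllt3 (81.0 ± 16.7), Brd9 (55.6 ± 23.0), Mllt1 (49.4 ± 16.0), Brd3 (37.3 ± 8.53), Yeats2 (29.9 ± 16.7) and Yeats4 (27.6 ± 17.7). Only the step from Mllt3 to Brd9 was larger than the SDs of both genes, and the other neighbours in this order overlapped within their spread. The BET pair was thus split, with Brd2 near the top and Brd3 below the middle. Of the YEATS genes, Mllt3 was high and Yeats2 and Yeats4 were low.

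**Figure D2:**
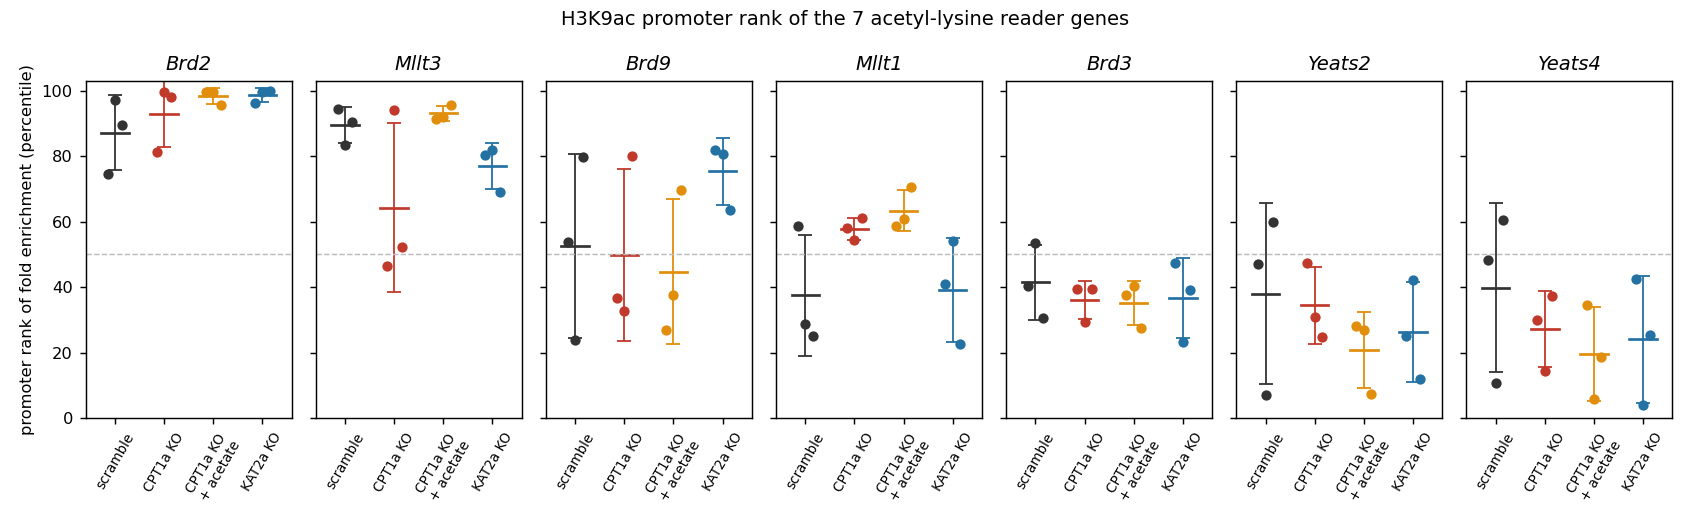
Percentile of the promoter rank of fold enrichment (y axis, dashed line at 50) for the 7 genes in the 4 groups, ordered by mean level, with 1 point per library, the horizontal bar for the group mean and the error bar for the SD of 3 libraries. Brd2 lies at 74.7 or above in every library, Yeats4 at 60.4 or below, and the groups overlap in most panels.

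Libraries of one group spread widely for some of the genes. The SD within groups, pooled over the 4 groups, was 22.8 percentile points for Brd9, more than for 95.5% of the 10777 genes, and 18.6 for Yeats4 and 17.8 for Yeats2. It was 7.86 for Brd2 and 9.54 for Brd3, against a median of 11.9 over all genes.

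To ask whether the ranks differed between groups, the normal scores of the ranks of all 10777 genes were fitted with limma, and p-values were adjusted by Benjamini and Hochberg over all of them. For CPT1a knockout against scramble, 0 of the 7 genes passed an adjusted p of 0.05, with 9.84% of all genes called. For KAT2a knockout against scramble it was 0 of 7, with 3.68% called, and for the CPT1a knockout with acetate against scramble 0 of 7, with 5.33% called. For scramble against the other 3 groups together it was 0 of 7, with 12.9% called.

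Of the 2 comparisons between knockout groups, the CPT1a knockout with acetate against the CPT1a knockout called 0% of genes (1005 had an unadjusted p below 0.05), and the CPT1a knockout against the KAT2a knockout called 0% as well (1154). The 7 genes added no call in either. Without adjustment, limma gave p below 0.05 for 0 of the 7 genes in CPT1a knockout against scramble (27.4% of all genes), 1 in the KAT2a knockout (21.5%), 2 in the acetate group against scramble (22.8%), 1 in scramble against the rest (29.5%) and 1 in acetate against the CPT1a knockout (9.33%). The comparisons with scramble share its 3 libraries. In simulated data a call needed a large shift. With 200 of 10777 genes shifted for CPT1a knockout against scramble, 0% were called at a shift of 1 normal score and 84.5% at a shift of 2. The real comparison differed from this setting, as 1060 genes were called in it. Smaller shifts could pass there, such as 1.06 for Smarcd1, described below (limma adjusted p = 0.0228). The simulation therefore does not give the shift that the 7 genes would have needed.

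Brd2, the BET gene with the strongest promoter, stood at percentiles of 74.7, 97.3 and 89.5 in scramble. It stood at 81.2, 99.8 and 98.2 in the CPT1a knockout, at 99.8, 99.8 and 95.7 with acetate and at 96.4, 99.8 and 100.0 in the KAT2a knockout. The 3 lowest libraries were 2 of scramble and 1 of the CPT1a knockout, and the groups overlapped. The difference in normal score was 1.4 (SE 0.52) for the KAT2a knockout against scramble (limma, adjusted p = 0.136), and −1.09 (SE 0.42) for scramble against the other groups (adjusted p = 0.102). The second passed when CPT1a knockout replicate 1 was left out (−1.26, adjusted p = 0.0421). Ranked by −log10 p instead of fold enrichment, Brd2 was called higher than in scramble in the KAT2a knockout (1.27, SE 0.23, limma adjusted p = 0.000936), where 22.8% of all genes were called, so the call turned on which column was ranked.

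On the same −log10 p ranking, Brd2 and Mllt1 were the 2 of 7 genes called in CPT1a knockout against scramble (32.7% of all genes), with acetate against scramble (25.0%) and in scramble against the rest (37.1%). No gene was called between acetate and the CPT1a knockout (0%), where 1490 genes had an unadjusted p below 0.05 by limma.

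The promoter peaks of Brd2, summed over the windows of all its annotated start sites, were the widest of the 7, at 10201, 9622 and 9552 bp in scramble. They summed to 7780, 7797 and 7152 bp in the CPT1a knockout, 8909, 8451 and 8680 bp with acetate, and 8555, 7985 and 8087 bp in the KAT2a knockout. Every scramble library was above the other 9, a pattern seen in 2 of the 7 genes (Brd2 and Brd9) and in 41.3% of all genes. Peaks covered 63.2 to 79.9% of the 10.6 kb gene in scramble, 54.0 to 57.4% in the CPT1a knockout, 64.1 to 66.4% with acetate and 59.3 to 64.8% in the KAT2a knockout, and the last 2 ranges overlapped with scramble. The same peak region held the start of H2-DMa, an MHC class II accessory gene that starts 222 bp upstream on the opposite strand, and of the antisense gene CR974462.3, so the rank belongs to a shared domain.

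Brd3, the second BET gene, ranked at percentiles of 40.2, 53.5 and 30.6 in scramble, 39.3, 29.3 and 39.5 in the CPT1a knockout, 37.5, 40.4 and 27.4 with acetate and 47.5, 23.3 and 39.2 in the KAT2a knockout. The ranges of the 4 groups overlapped, and the adjusted p was 0.773 for the CPT1a knockout and 0.81 for the KAT2a knockout against scramble by limma. Its width behaved differently from its rank. The promoter peaks of Brd3 summed to 3630, 3237 and 3190 bp in scramble, 3481, 3631 and 2283 bp in the CPT1a knockout, 3589, 2836 and 3342 bp with acetate and 3431, 3263 and 3047 bp in the KAT2a knockout. In base pairs, then, the groups overlapped, while the median gene was narrower in the other 9 libraries than in scramble.

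Width was tested as log2 of the summed width after the median of all genes was taken off in each library, so that 0 is the width of the median gene. On this scale Brd3 stood at 0.09, 0.24 and 0.15 in scramble and between 0.35 and 0.70 in the other 9 libraries, without overlap, a pattern seen in 1 of the 7 genes and in 11.7% of all genes. The difference was 0.45 (SE 0.09, limma adjusted p = 0.0068) for the CPT1a knockout against scramble, where 20.2% of all genes were called. It was 0.30 (SE 0.09, adjusted p = 0.045) for the KAT2a knockout (15.9% of genes called) and 0.36 (SE 0.09, adjusted p = 0.0236) for acetate against scramble (16.9%). For scramble against the other groups it was −0.37 (SE 0.08, adjusted p = 0.00457), with 27.6% of genes called.

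Brd3 was the only 1 of the 7 called in each of these 4 comparisons, and 1 of 7 is a smaller share than that of all genes called. The call in the KAT2a knockout was lost without any 1 of its own 3 libraries or without scramble replicate 1 or 3 (adjusted p up to 0.133), and the call with acetate was lost without acetate replicate 1 or 2 or scramble replicate 1 or 3 (adjusted p up to 0.0811). Both were also lost when peaks within 500 bp were joined (0.26, adjusted p = 0.0973 in the KAT2a knockout and 0.29, adjusted p = 0.0682 with acetate), and with acetate Brd2 was then the called gene (0.41, limma adjusted p = 0.0221). Acetate against the CPT1a knockout gave 0 of 7 by limma, with 0% of all genes called (699 at an unadjusted p below 0.05), and the Brd3 difference was −0.09 (SE 0.09, adjusted p = 0.885). The relative width of Brd3 is a statement about the median gene and not about base pairs. Without centring, its difference was −0.13 (SE 0.18, adjusted p = 0.538) in the CPT1a knockout against scramble, and with the strongest peak alone the call was lost (0.42, adjusted p = 0.283), as it was in the other 3 comparisons.

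**Figure D3:**
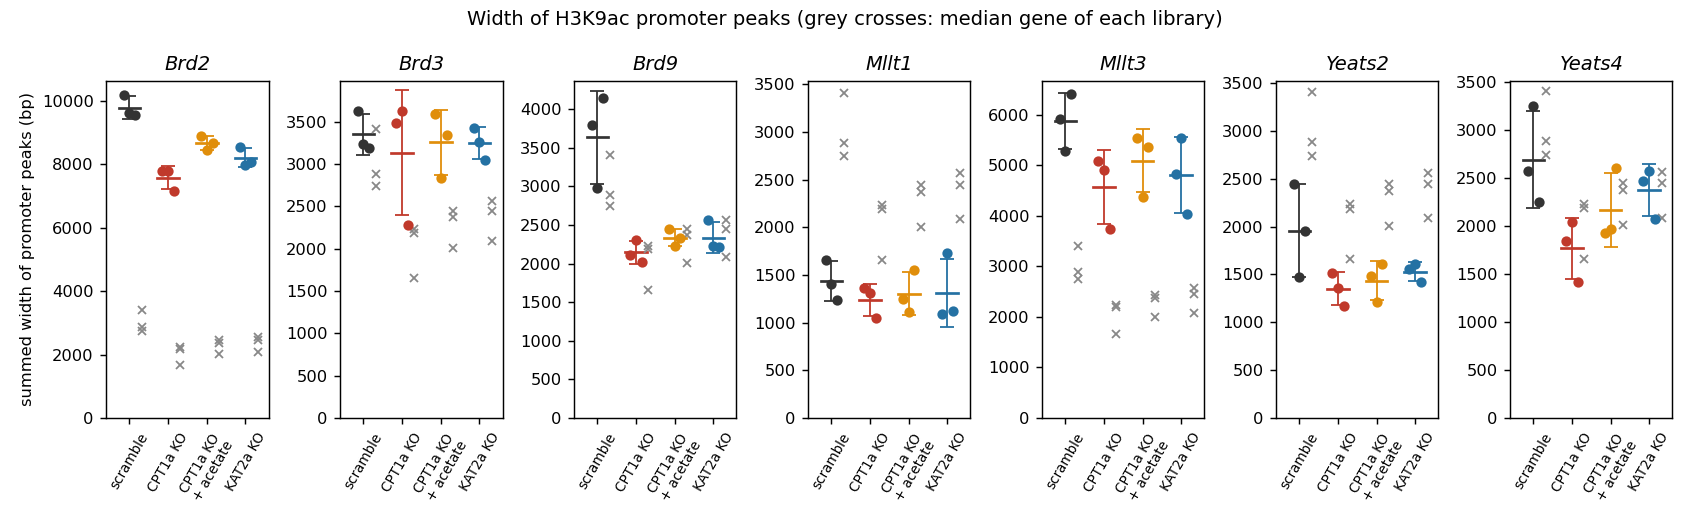
Summed width of the promoter peaks in bp (y axes start at 0 and differ between genes) in the 4 groups, with 1 point per library, bars for group means and error bars for the SD of 3 libraries, and grey crosses for the median gene of each library. The widths of Brd2 and Brd9 are higher in the 3 scramble libraries than in the other 9. Brd3 lies above the median gene of its library in all 12, by less in scramble than elsewhere.

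In base pairs, without centring, the fit called 4 of the 7 genes narrower in the CPT1a knockout than in scramble (Brd2, Brd9, Yeats2 and Yeats4), where 62.0% of all genes were called. Brd9 was the 1 of 7 called narrower in the KAT2a knockout (19.4% of genes called) and with acetate (31.0%) against scramble. Brd2, Brd9 and Yeats2 were the 3 of 7 called wider in scramble than in the rest (56.1%), and 0 were called between acetate and the CPT1a knockout (0% of genes, 428 at an unadjusted p below 0.05). On this scale the median gene was 0.54 log2 narrower in the CPT1a knockout than in scramble.

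Brd9 encodes the bromodomain subunit of the noncanonical BAF remodelling complex. Its percentiles were 53.9, 23.7 and 79.8 in scramble, 36.7, 32.7 and 80.2 in the CPT1a knockout, 27.0, 37.5 and 69.6 with acetate and 82.0, 80.6 and 63.6 in the KAT2a knockout. In each of the first 3 groups replicate 3 was far above the other libraries, and only the KAT2a libraries were all above 60. The difference between the KAT2a knockout and scramble was 0.64 (SE 0.43, limma adjusted p = 0.422).

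The peaks of Brd9 summed to 3798, 2973 and 4139 bp in scramble and to between 2017 and 2567 bp in the other 9 libraries. Without centring this was a log2 difference of −0.75 (SE 0.15, limma adjusted p = 0.00252) in the CPT1a knockout, −0.63 (SE 0.15, adjusted p = 0.0216) in the KAT2a knockout and −0.63 (SE 0.15, adjusted p = 0.015) with acetate. Relative to the median gene the Brd9 differences were −0.17 (adjusted p = 0.382), −0.28 (adjusted p = 0.163) and −0.22 (adjusted p = 0.268), so Brd9 narrowed in base pairs and was not called relative to the other genes. The scramble peaks reached further on both sides. From 1 to 3 kb past the start site, peaks covered 1366, 678 and 1556 bp in scramble and 0 to 277 bp elsewhere. The main peak began at −1437 to −1295 bp in scramble and at −1290 to −1094 bp elsewhere. Each scramble library also had a separate peak between −2402 and −1503 bp, outside the promoter window and not in the summed width, which the other 9 libraries lacked.

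Brd9 starts 54 bp from Trip13, a meiotic and mitotic checkpoint ATPase gene on the opposite strand, and both starts were inside the peak in all 12 libraries. The summit lay at −698 to −451 bp from the Brd9 start site, that is upstream of it, in every library, on the Trip13 side of the shared promoter. The rank and width of the Brd9 promoter are therefore those of a pair of genes.

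**Figure D4:**
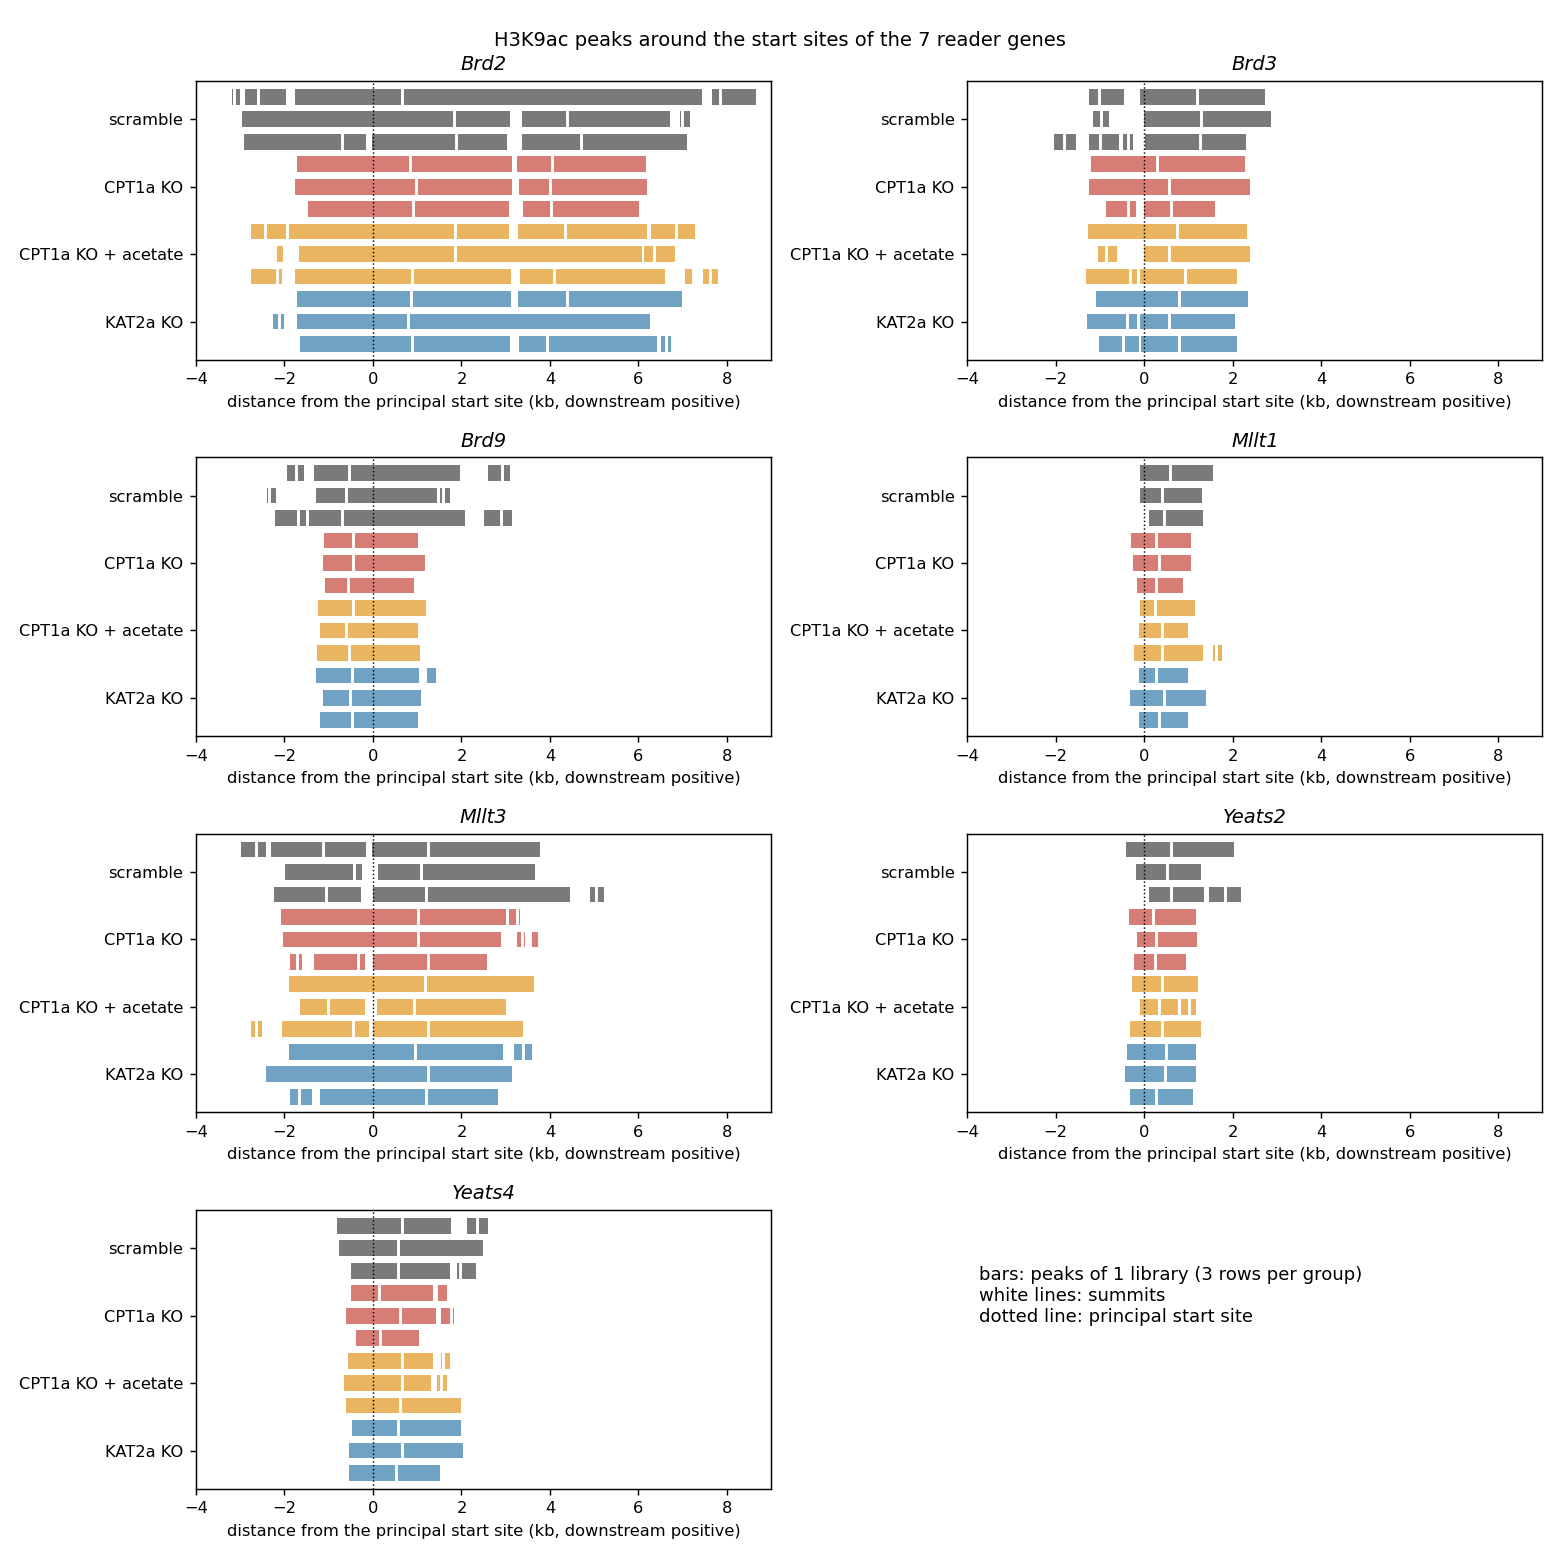
H3K9ac peaks (bars) and their summits (white lines) around the principal start site of each gene (dotted line), with distance in kb on the x axis, downstream positive, and 1 row per library in the 4 groups. The Brd2 peaks run over several kilobases, the Brd9 summits lie upstream of the start site in all 12 libraries, and the scramble summits of Brd3 lie further downstream than the others.

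The shape of the other promoters was described without a test. Over all 10777 genes, the summit of the strongest peak lay further downstream of the principal start site in every scramble library than in any other for 33.8% of genes, and nearer in all 3 for 6.88%. Brd3 and Yeats2 were the 2 of the 7 genes with this pattern, and none had the opposite one. The Brd3 summits lay 1202, 1291 and 1267 bp downstream in scramble and 300 to 913 bp elsewhere. The Yeats2 summits lay 605, 510 and 604 bp downstream in scramble and 208 to 487 bp elsewhere.

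Coverage from 1 to 3 kb downstream was higher in every scramble library than in any other for 53.4% of all genes and for 2 of the 7, Brd9 and Yeats4. Yeats4 had 1241, 1482 and 1169 covered bases there in scramble and 45 to 1030 elsewhere. Both shares among the 7 were below those of all genes.

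Mllt1 (ENL) and Mllt3 (AF9) are related YEATS proteins of the super elongation complex and of the complex of Dot1l, the H3K79 methyltransferase. Mllt1 ranked at percentiles of 58.6, 28.6 and 25.1 in scramble, 58.0, 54.4 and 61.2 in the CPT1a knockout, 58.6, 60.9 and 70.5 with acetate and 40.8, 54.2 and 22.5 in the KAT2a knockout. The 6 libraries of the CPT1a knockout lines were at 54.4 or above, and scramble replicate 1 reached the same range. The differences from scramble were 0.54 (SE 0.29, limma adjusted p = 0.254) without and 0.68 (SE 0.29, adjusted p = 0.185) with acetate. By −log10 p they were 0.72 (SE 0.22, adjusted p = 0.0162) and 0.91 (SE 0.22, adjusted p = 0.00563).

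By its mean over the 12 libraries the Mllt1 peak was the narrowest of the 7, at 1660, 1406 and 1242 bp in scramble and 1045 to 1726 bp elsewhere. It was a single peak in every library, with its summit 239 to 575 bp downstream.

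Mllt3 ranked at percentiles of 94.3, 83.5 and 90.5 in scramble, 46.5, 94.0 and 52.3 in the CPT1a knockout, 91.5, 92.1 and 95.8 with acetate and 80.3, 81.8 and 69.1 in the KAT2a knockout. The scramble and acetate libraries were at 83.5 or above, as was CPT1a knockout replicate 2, while the other CPT1a knockout libraries were near the middle. The difference was −0.78 (SE 0.37, limma adjusted p = 0.187) for the CPT1a knockout against scramble and 1.00 (SE 0.37, adjusted p = 0.479) for acetate against the CPT1a knockout. The first was called when CPT1a knockout replicate 2 was left out (−1.30, adjusted p = 0.0195), so 1 library decides it. In the KAT2a knockout all 3 libraries were below all 3 of scramble (−0.53, SE 0.37, adjusted p = 0.428), as for 15.0% of all genes, and Mllt3 was the 1 of 7 with this pattern.

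The peaks of Mllt3 summed to 5925, 5295 and 6408 bp in scramble, 5085, 4910 and 3743 bp in the CPT1a knockout, 5550, 4380 and 5366 bp with acetate and 4840, 5550 and 4036 bp in the KAT2a knockout. In base pairs the 3 CPT1a knockout libraries were below all 3 of scramble, while the other groups overlapped with scramble. This pattern was seen in 4 of the 7 genes (Brd2, Brd9, Mllt3 and Yeats4) and in 66.0% of all genes. Without centring the Mllt3 difference in the CPT1a knockout was −0.37, and relative to the median gene it was 0.21 (SE 0.10, limma adjusted p = 0.136), so its sign depends on the scale. The summit lay 938 to 1246 bp downstream in all 12 libraries, further than the median gene, whose summit lay 544 to 591 bp downstream in scramble and 314 to 376 bp elsewhere.

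Yeats2 encodes the YEATS subunit of the ATAC complex, in which KAT2a is an acetyltransferase. It ranked at percentiles of 47.2, 6.91 and 59.8 in scramble, 47.5, 31.0 and 24.8 in the CPT1a knockout, 28.1, 26.8 and 7.28 with acetate and 25.1, 42.2 and 11.8 in the KAT2a knockout. Scramble held both the lowest and the highest library. The difference was −0.25 (SE 0.42, limma adjusted p = 0.774) for the KAT2a knockout and −0.45 (SE 0.42, adjusted p = 0.554) for acetate against scramble.

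The Yeats2 peaks summed to 2446, 1470 and 1956 bp in scramble and 1172 to 1607 bp elsewhere. Without centring they were 0.51 log2 narrower in the CPT1a knockout than in scramble (SE 0.19, limma adjusted p = 0.0319), and centred they differed by 0.06 (SE 0.11, adjusted p = 0.716).

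Yeats4 (GAS41) is shared by the TIP60 and SRCAP complexes, which exchange the histone variant H2A.Z. It ranked at percentiles of 48.2, 10.8 and 60.4 in scramble, 29.8, 14.5 and 37.2 in the CPT1a knockout, 34.5, 5.71 and 18.6 with acetate and 42.6, 3.97 and 25.4 in the KAT2a knockout. Replicate 2 was the lowest library in each of the 4 groups, and scramble held the highest value. The differences from scramble were −0.30 (SE 0.45, limma adjusted p = 0.713) in the CPT1a knockout and −0.53 (SE 0.45, adjusted p = 0.537) in the KAT2a knockout.

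The Yeats4 peaks summed to 2578, 3247 and 2249 bp in scramble, 1847, 2039 and 1418 bp in the CPT1a knockout, 1923, 1964 and 2608 bp with acetate and 2472, 2578 and 2071 bp in the KAT2a knockout. The CPT1a knockout libraries were all below scramble, as for 66.0% of all genes. In base pairs that was a log2 difference of −0.61 (SE 0.19, limma adjusted p = 0.0172), and centred it was −0.03 (SE 0.15, adjusted p = 0.921). The noncoding gene Gm48772 starts 82 bp upstream of Yeats4 on the opposite strand and shared the peak in all 12 libraries.

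The genes whose ranks followed each member most closely over the 12 libraries were named by Pearson correlation, as a description over libraries that share their groups. Each was picked from the top of the correlations with the 10777 genes over only 12 libraries. How high such picks run by chance was not tested. The genes named were Cct7 and Pradc1 for Brd2 (r = 0.942 each), Gas2l3 (0.798) and 9130019O22Rik (0.79) for Brd3, and F2rl1 (0.84) and Zkscan7 (0.815) for Brd9. For the YEATS genes they were Snu13 (0.891) for Mllt1, Rab33b (0.924) and Ccdc82 (0.915) for Mllt3, Vhl (0.895) and Rex1bd (0.875) for Yeats2, and Senp8 and Myo9a (0.86 each) for Yeats4. Among the 7 themselves, the highest correlation was between Yeats2 and Yeats4 (0.501) and the lowest between Brd2 and Yeats2 (−0.587).

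The partners of the 7 proteins were taken from lists that are not complete. Of 36 other bromodomain and PHD finger genes, 33 were tested, and 0 were called by rank in the CPT1a knockout or the KAT2a knockout against scramble, where limma called 9.84% and 3.68% of all genes. By centred width, 6 of the 33 were called wider and 1 narrower in the CPT1a knockout, where 20.2% of all genes were called (1438 wider and 740 narrower), so the share was near that of all genes. The median difference was 0.08 against 0.03 for all genes.

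Of the 11 partners of Brd9 in the noncanonical BAF complex, 1 was called by rank in the CPT1a knockout, a share near the 9.84% of all genes. It was Smarcd1, a core subunit, which rose from a percentile of 9.64 ± 1.76 in scramble to 40.9 ± 15.6 (SD, n = 3 each, limma adjusted p = 0.0228). In the KAT2a knockout it stood at 24.8 ± 5.46 (adjusted p = 0.183). None of the 13 tested partners of Mllt1 and Mllt3 was called in either knockout, and their median differences were 0.15 and 0.07 against 0.01 and 0.00 for all genes.

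Of the 12 ATAC genes tested beside Yeats2, 1 was called by rank in the CPT1a knockout against scramble (9.84% of all genes) and 0 in the KAT2a knockout (3.68%), again a share near that of all genes. The called gene was Kat2a. Its promoter stood at percentiles of 6.04, 8.06 and 6.45 in scramble and at 35.7, 43.5 and 60.9 in the CPT1a knockout (difference 1.41, SE 0.27, limma adjusted p = 0.00832). In the KAT2a knockout it stood at 42.3, 13.1 and 30.3, a difference of 0.88 (SE 0.27, adjusted p = 0.0849). All 9 libraries outside scramble were above the 3 of scramble, a pattern seen in 4.51% of all genes and in 0 of the 7. A frameshift in an exon leaves the promoter in place, so the Kat2a peak does not check the knockout, and likewise the Cpt1a promoter kept a peak in every library, with a mean percentile of 27.1 ± 13.2 in scramble and 45.3 ± 15.0 in the CPT1a knockout.

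Of the 19 TIP60 and SRCAP genes tested beside Yeats4, 6 were called higher and 1 lower in the CPT1a knockout than in scramble, where 9.84% of all genes were called (501 higher and 559 lower). The median difference was 0.60 against 0.01 for all genes. In the KAT2a knockout 2 were called higher and 0 lower, with 3.68% of all genes called (median 0.28 against 0.00), and with acetate 4 higher and 0 lower, with 5.33% called (0.52 against 0.00). Epc2, a scaffold subunit of TIP60, stood at 34.5 ± 0.651 in scramble and 88.1 ± 1.27 in the CPT1a knockout (limma adjusted p = 0.00453). Srcap, the ATPase of its complex, stood at 25.2 ± 6.05 and 70.0 ± 4.04 (adjusted p = 0.00753). Mrgbp, which binds MRG proteins in TIP60, stood at 10.9 ± 6.45 and 59.1 ± 9.25 (adjusted p = 0.0109), and at 50.4 ± 6.01 in the KAT2a knockout (adjusted p = 0.038). Yeats4 itself was at 39.8 ± 25.8 and 27.2 ± 11.5 in scramble and the CPT1a knockout, and was not called.

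**Figure D5:**
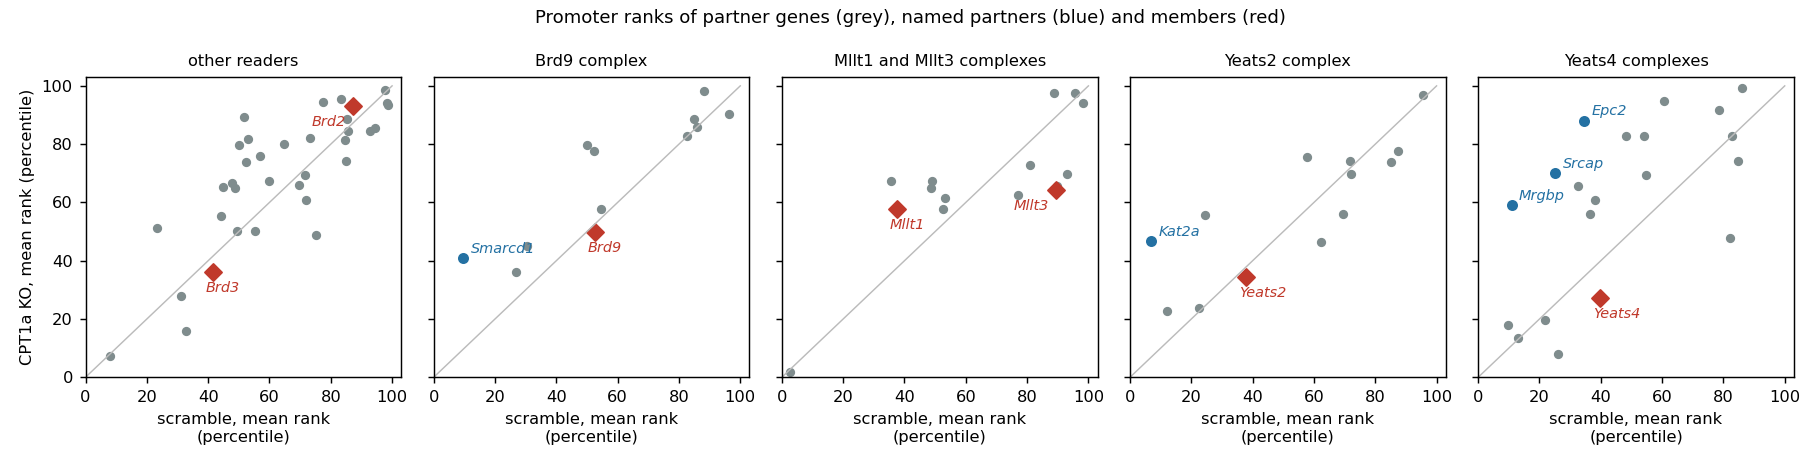
Mean promoter rank (percentile) in scramble (x axes) against the CPT1a knockout (y axes) for each list of partner genes (grey points), the partners named in the text (blue) and the genes themselves (red diamonds), with the line of equal rank. Smarcd1, Kat2a, Epc2, Srcap and Mrgbp lie above the line, and Yeats4 lies below it.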

How the data were processed

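The authors mapped H3K9ac by ChIPmentation in 12 libraries (4 groups of 3), aligned reads to mm10 and deposited 1 MACS2 narrowPeak list per library, without pooling replicates. The methods name BWA, whereas the submitters' processing notes name Bowtie2, and the calling settings are not given in the sources used here. The deposited lists give a fold enrichment (a ratio over local background), a −log10 p, a −log10 q and a score for each peak. Fold enrichment was ranked, −log10 p served as an alternative, and the score, a rounded copy of −log10 q, was not used in any test. Drosophila chromatin was added at the bench as a spike-in, and no scaling by it was used here.

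Peaks on chromosome Y (11 to 45 per list) were set aside. Promoters were windows of 1 kb around every GENCODE vM21 start site, with 1 bp of overlap required. The strongest peak of each gene was ranked within its library, and ranks were turned into normal scores. Widths were summed over promoter peaks, put on a log2 scale and centred on the library median. Both were fitted over the 10777 genes with a peak in all 12 libraries, with 4 groups in 1 fit, in limma (v3.58.1, R 4.3.3) with Benjamini and Hochberg adjustment and a threshold of 0.05. The fits were tested on simulated data. Sequences came from GRCm38. Batches are not given in the labels, so batch and group cannot be told apart. The 7 genes and all lists were chosen with earlier results of these data known. All 7 genes are named, as are up to 3 genes per other list with the smallest adjusted p past the threshold by rank in either knockout against scramble, and 2 genes most alike per member. A promoter sequence with its motifs and 1 of the most alike genes are not reported here. Summit positions, downstream coverage, non-overlap of widths in base pairs and start-site clusters were added after the data were seen and are described without a test.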

Additional observations from a re-analysis of the deposited data

How the results depend on the processing

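All 7 genes kept a promoter peak in all 12 libraries with windows of 500 bp or 2 kb, an overlap of 200 bp, a −log10 q of at least 5 and lists cut to 16201 peaks. The number of genes called by rank stayed at 0 under these settings and with the GC trend removed, with array weights and, in the 5 comparisons between single groups, with only the compared groups; that setting was not run for scramble against the rest. Ranked by −log10 p it was 2 in the CPT1a knockout, 1 in the KAT2a knockout and 2 with acetate against scramble, and 2 in scramble against the rest. Leaving out 1 library gave 0 to 1 calls by rank in the CPT1a knockout against scramble and 0 to 1 in scramble against the rest, and 0 in the other 4 comparisons.

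By width, joining peaks within 500 bp gave 2 calls in the CPT1a knockout, 0 in the KAT2a knockout, 1 with acetate (Brd2 in place of Brd3) and 4 in scramble against the rest. The strongest peak alone gave 0 calls in each comparison with scramble (CPT1a knockout 0, KAT2a knockout 0, acetate 0, scramble against the rest 0). Without centring there were 4 calls in the CPT1a knockout and 3 in scramble against the rest. Leaving out 1 library gave 1 call in each of 6 fits in the CPT1a knockout, 0 to 2 in the KAT2a knockout, 0 to 1 with acetate and 1 to 2 in scramble against the rest.

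Directions of width against scramble turned without centring, by construction where the library median moved. In the CPT1a knockout they were −0.37 for Brd2, −0.13 for Brd3, −0.21 for Mllt1, −0.37 for Mllt3 and −0.51 for Yeats2. In the KAT2a knockout they were −0.17 for Yeats4, −0.05 for Brd3, −0.25 for Brd2, −0.15 for Mllt1, −0.3 for Mllt3 and −0.33 for Yeats2. With acetate they were −0.17 for Brd2, −0.05 for Brd3, −0.15 for Mllt1, −0.21 for Mllt3 and −0.31 for Yeats4. For scramble against the rest they were 0.36 for Yeats4, 0.17 for Mllt1, 0.27 for Brd2, 0.07 for Brd3, 0.29 for Mllt3 and 0.42 for Yeats2. Small differences also turned for Yeats4, to 0.04 (CPT1a knockout, peaks joined), −0.02 (KAT2a knockout, strongest peak) and 0.11 (scramble against the rest, strongest peak), where Yeats2 came to 0.00. Leaving out 1 library, the width differences of Yeats4 and Yeats2 in the CPT1a knockout ran from −0.14 to 0.18 and from −0.06 to 0.15; both turned without scramble replicate 2. In scramble against the rest they ran from −0.29 to 0.03 and from −0.1 to 0.11, turning for Yeats4 without scramble replicate 1 (0.03) or 3 (0.01) and for Yeats2 without scramble replicate 2. The cause was not tested.

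The groups share replicate numbers, but over all genes samples with the same number did not deviate together. The 18 correlations of their deviations from the group means ran from −0.063 to 0.0595. No pairing by number was visible over all genes, which does not show how the samples were prepared. With the replicate number as a block, the width call of Brd3 in the KAT2a knockout was lost (0 calls, 0.30, limma adjusted p = 0.0681), and the number of genes called was the same in the other comparisons. With 3 libraries a group and no depth in the lists, small differences could not be detected. Ranks within a library and widths centred on its median also cannot show a gain or loss of the mark, of any size, that all genes share.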
